A study of Mus musculus with 12 samples.

Results

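The 10 genes described here are commonly used to mark astrocytes. They were taken from the UMI count table by their symbols, Gfap, Aqp4, Slc1a2, Slc1a3, Gja1, Aldoc, S100b, Aldh1l1, Apoe and Glul, and each symbol matched 1 of 32546 rows. Photo-isolation chemistry (PIC) places a caged reverse transcription primer on a tissue section, and light frees the primer only in the irradiated area, so that the sequenced cDNA comes from that area. The areas were CA1, CA3 and the dentate gyrus (DG) of the hippocampus of male ICR mice aged 8 weeks. The series description lists CA2 where the sample titles and the paper have CA3, and CA3 was used. Sections were prepared in 4 ways: fresh-frozen with 0.1 N HCl for 5 min as the permeabilization (FF HCl), fresh-frozen with TE at 70 °C for 1 h (FF TE), fixed with 4% PFA and frozen with TE (PFA frozen), and fixed with 4% PFA and embedded in paraffin with TE (paraffin). The paper's protocol also gives every section, fresh-frozen ones too, a short post-fixation with 4% PFA on the slide. Its HCl treatment further includes 5% Triton X-100 and heated PBS. Each of the 12 combinations of region and condition was 1 library that pooled 4 barcoded replicates. The paper describes the 4 replicates as biological. Which mouse gave which replicate is not given in the sources used here, and p-values measure the spread between these replicates.

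The values below are CPM, the UMIs of a gene scaled to a total of 1000000 UMIs in its replicate. Totals ranged from 127253 to 933756 UMIs per replicate in FF HCl, from 294445 to 1111804 in FF TE, from 52800 to 307145 in PFA frozen and from 35932 to 223055 in paraffin sections. Replicate 4 was the shallowest in all 12 libraries. Prox1, a transcription factor of DG granule cells, was 1 of 11 region markers looked at. It was called higher in DG than in CA1 and CA3 in all 4 conditions. Against DG, Wfs1 and Pou3f1 were called higher in CA1, and Bok and Grik4 higher in CA3, in FF HCl, FF TE and PFA frozen sections. In paraffin sections Pou3f1 was called again, and Wfs1 (log2 difference 0.53, adjusted p = 0.821), Bok (2.26, adjusted p = 0.0648) and Grik4 (1.61, adjusted p = 0.24) were not. The CA3 markers Iyd and Coch were called in no comparison of regions.

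Astrocytes clear glutamate and potassium from the space around synapses, carry water at their endfeet on vessels, and are coupled by gap junctions. Slc1a2 (GLT-1) and Slc1a3 (GLAST) encode the glutamate transporters, and Glul encodes glutamine synthetase, which turns glutamate into glutamine. Aqp4 encodes the water channel of the endfeet, and Gja1 encodes the gap junction protein connexin 43. Gfap encodes an intermediate filament and S100b a calcium-binding protein. Aldoc encodes the brain aldolase of glycolysis, Aldh1l1 an enzyme of folate metabolism, and Apoe the apolipoprotein that carries lipids between brain cells. Several of these genes are known from other cells as well: stem cells of the DG with radial processes express Gfap and Slc1a3, oligodendrocytes express Glul and S100b, microglia express Apoe, and some hippocampal neurons hold Slc1a2 mRNA. The irradiated areas hold a mixture of cells, and CPM are shares of all UMIs from an area. A lower level can stand for fewer astrocytes, for less RNA in each or for a larger share from other cells. These cannot be told apart.

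In GENCODE M21 (GRCm38), Slc1a3 lies on chromosome 15 from 8634124 to 8710764, Gja1 on chromosome 10 from 56377330 to 56402513, Slc1a2 on chromosome 2 from 102658659 to 102790784 and Glul on chromosome 1 from 153899944 to 153909723. Gfap lies on chromosome 11 from 102887336 to 102900912, Aldoc on chromosome 11 from 78322968 to 78327781, S100b on chromosome 10 from 76253853 to 76261159, Aldh1l1 on chromosome 6 from 90486427 to 90600203 and Apoe on chromosome 7 from 19696109 to 19699188. Exons of Slc1a2 share bases with Gm13872 on the other strand, those of Aldh1l1 with Gm15756 and Gm45901, and those of Glul with Mir8114 and Teddm2. The featureCounts command printed in the paper sets no strand option, so reads from these shared bases were not told apart by strand. Slc1a3 and Gja1 are the pair of members with the highest Pearson's r across the replicates (below, 0.629), so the 250 bases before their start sites are shown from RefSeq (GRCm38.p6). The Slc1a3 bases are chr15:8710808-8711057 on the minus strand and the Gja1 bases are chr10:56377050-56377299 on the plus strand, both written 5′ to 3′.
Slc1a3: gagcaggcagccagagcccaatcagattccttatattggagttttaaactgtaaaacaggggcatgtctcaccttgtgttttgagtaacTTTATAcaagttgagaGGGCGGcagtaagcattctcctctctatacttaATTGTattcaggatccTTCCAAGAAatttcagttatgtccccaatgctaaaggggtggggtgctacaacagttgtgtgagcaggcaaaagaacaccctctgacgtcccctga
Gja1: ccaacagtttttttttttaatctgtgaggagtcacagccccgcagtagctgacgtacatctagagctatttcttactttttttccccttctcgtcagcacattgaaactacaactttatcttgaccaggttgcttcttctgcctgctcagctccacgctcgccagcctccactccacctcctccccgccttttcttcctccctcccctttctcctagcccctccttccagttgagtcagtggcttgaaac
Capitals mark matches, on either strand, to the half-site of NFI factors (TTGGC), the TATA box (TATAAA), the GC box (GGGCGG), the STAT site (TTCNNNGAA) and the SOX site (ACAAT). Slc1a3 had 1 match each to the TATA box, the GC box, the STAT site and the SOX site, and Gja1 had a match to none of the 5. Among 32851 windows of the same length, 12.4% held a TATA box, 32.7% a GC box, 7.02% a STAT site, 27.7% a SOX site and 41.5% an NFI half-site. A match is a description of letters and not a site of binding.

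All members but Aldh1l1 had at least 9 UMIs in each fresh-frozen replicate. Slc1a2 had the highest median CPM over the 12 replicates of each condition, with 1859 to 2792 CPM with a median of 2305 in FF TE. In DG of the fresh-frozen sections the mean of Slc1a3 was above that of Slc1a2, 1968 ± 397 against 1545 ± 151 CPM with HCl and 2345 ± 622 against 2316 ± 323 with TE (SD, n = 4). With TE this order came from replicate 4 alone (3267 CPM of Slc1a3, flagged below), and in the other replicates Slc1a2 was the higher. Over the 12 FF TE replicates Slc1a3 had 1301 to 3267 CPM with a median of 1644. Apoe (1079.9 CPM), Glul (949), Aldoc (595) and Aqp4 (419) came next by their medians in FF TE, and Gja1 (162), S100b (106) and Gfap (79.1) were lowest among the 9. These are shares of the UMIs of the replicate. They were not divided by transcript length, since the assay reads a molecule from its 3′ end. UMIs have 6 bases, and molecules of a gene that share a UMI in a replicate are counted once. The highest count in a replicate was 58.6% of the different UMIs for Slc1a2, 37.3% for Slc1a3, 28.1% for Apoe and 23.1% for Glul. The CPM were not corrected for this, so these levels can be too low in deep replicates. A correction for UMI collisions was an alternative (below). Aldh1l1 had 88 UMIs in all 48 replicates together, at most 11 in a replicate. Its level was 1.47 to 9.89 CPM with a median of 3.87 in FF TE, and it was at 0 UMIs in 9 of 12 PFA frozen and 9 of 12 paraffin replicates. In CA3 of PFA frozen sections the count of 0 in 4 replicates allows up to 7.14 CPM, and in CA1 of paraffin sections up to 14.3 CPM (3 counts over the library, counting error only).

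**Figure D1:**
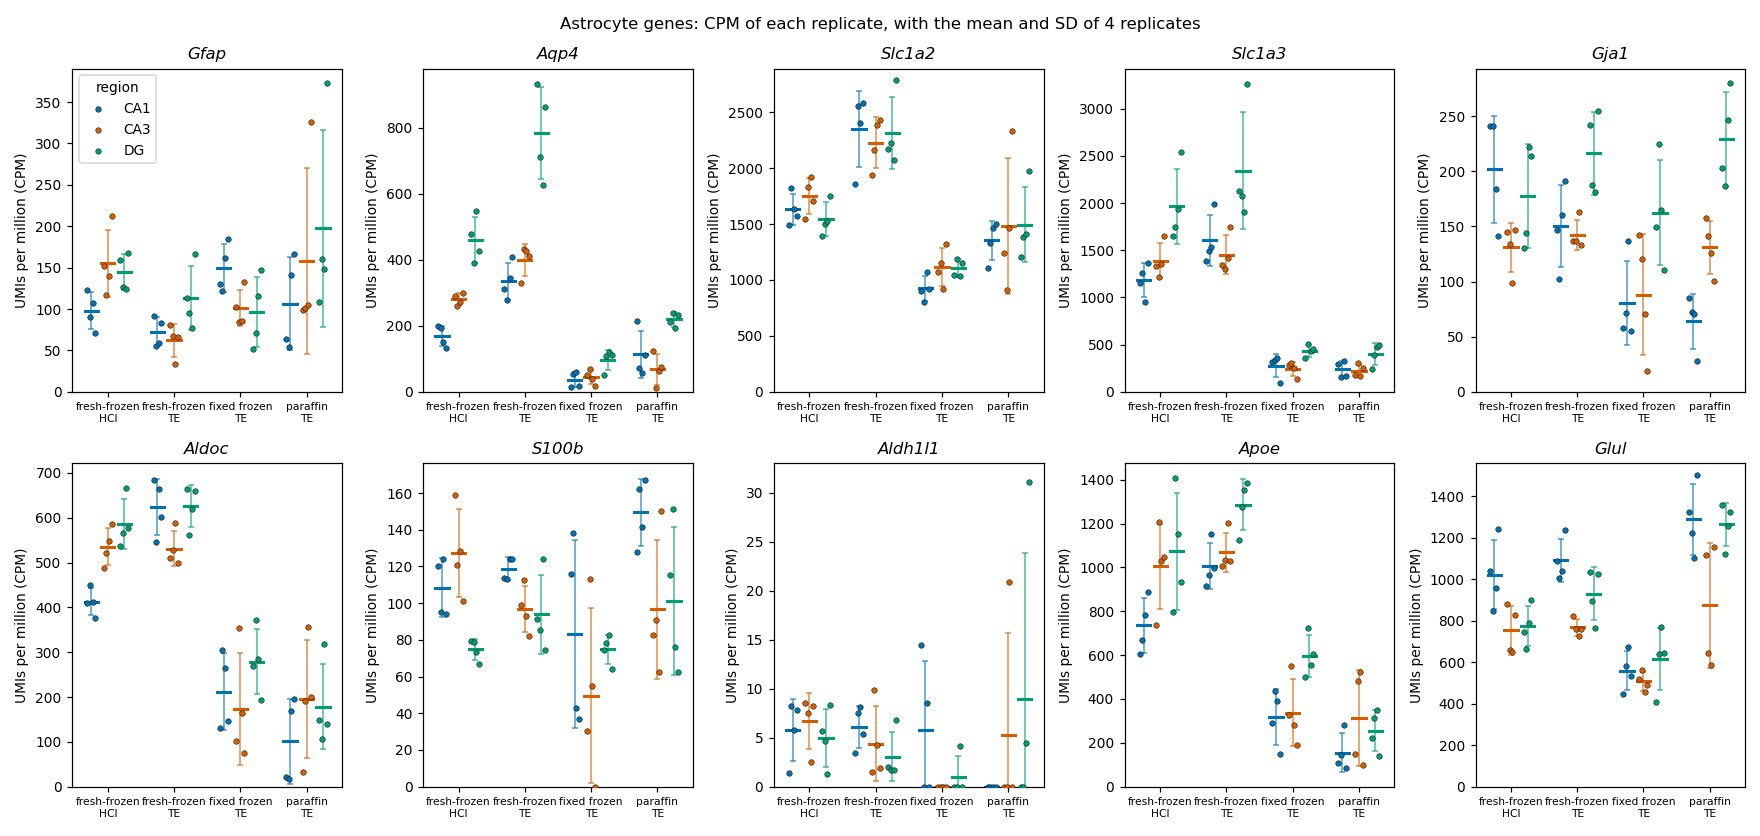
CPM (linear axis from 0) of the 10 astrocyte genes in each of 48 replicates, by condition and region, with points for replicates, a bar for the mean and whiskers for the SD of 4 replicates. Aqp4 and Slc1a3 had their highest mean in DG in each condition, whereas the means of Slc1a2 lay close together, and most genes were lower in the fixed sections.

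The comparison of regions asks whether the astrocyte genes differed between CA1, CA3 and DG. Aqp4 showed the clearest difference, with its highest level in DG. In FF HCl sections the 4 replicates of CA1 had 198, 192, 152 and 134 CPM, those of CA3 292, 261, 273 and 299, and those of DG 477, 389, 548 and 427. With FF TE the values were 311, 277, 344 and 407 in CA1, 329, 433, 427 and 410.3 in CA3 and 933, 712, 627 and 863 in DG. In both conditions the replicates of DG lay above all those of CA1 and CA3. The log2 difference of CA1 from DG was -1.41 (SE 0.18, adjusted p = 1.19e-07) in FF HCl and -1.21 (SE 0.16, adjusted p = 4.84e-07) in FF TE sections, which is 2.66-fold and 2.31-fold lower in CA1. That of CA3 from DG was -0.69 (SE 0.14, adjusted p = 0.00182) and -0.92 (SE 0.15, adjusted p = 1.28e-04). These 4 calls held without any 1 of the replicates. After thinning to the depth of the shallowest replicate, that of CA3 in FF HCl sections was lost (-0.87, adjusted p = 0.166).

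Aqp4 kept this direction in the fixed sections, from far fewer molecules. The PFA frozen replicates held 1, 10, 7 and 1 UMIs in CA1, 5, 10, 5 and 1 in CA3 and 7, 33, 29 and 12 in DG, which is 14.5, 55.3, 59.7 and 18.4 CPM, 50.9, 70.6, 39.1 and 18.9 CPM and 52.2, 107, 119.6 and 110.1 CPM. The replicates of CA1 and CA3 each overlapped those of DG. The difference of CA1 from DG was -1.21 (SE 0.39, adjusted p = 0.0261), and it was not called without CA1 replicate 1, 2 or 4 or DG replicate 2, 3 or 4 (-1.44 to -0.99, adjusted p = 0.0535 to 0.146) or with DESeq2 (-1.20, adjusted p = 0.146) and no filter (-1.20, adjusted p = 0.0578). CA3 differed from DG by -1.0 (SE 0.37, adjusted p = 0.0693), which did not pass. Paraffin replicates had 213, 71.99, 56.5 and 111 CPM in CA1, 124, 10.1, 62.7 and 75.2 in CA3 and 210.2, 240.1, 193 and 233 in DG. There CA3 lay below DG in every replicate, and CA1 replicate 1 reached the DG values. CA3 was lower than DG at a log2 difference of -1.54 (SE 0.39, adjusted p = 0.00996), and without CA3 replicate 2, which held 1 UMI, the value was -1.11, adjusted p = 0.137. This call was also lost after thinning (-1.35, adjusted p = 0.16). CA1 had -1.04 (SE 0.36, adjusted p = 0.0896) and did not pass. Between CA1 and CA3, Aqp4 was lower in CA1 in FF HCl sections, -0.75 (SE 0.16, adjusted p = 0.00206), without overlap, and the value was -0.28 (SE 0.16, adjusted p = 0.455) in FF TE sections. The FF HCl call was lost after thinning (-0.70, adjusted p = 0.566).

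Slc1a3, the GLAST transporter, was also higher in DG. Its replicates in FF HCl sections had 1153, 1261, 947 and 1367 CPM in CA1, 1335, 1221, 1349 and 1653 in CA3 and 1655, 1742, 1938 and 2537 in DG. With FF TE they had 1389.6, 1496, 1537 and 1994 in CA1, 1344, 1301, 1416 and 1751 in CA3 and 2127, 2077, 1909 and 3267 in DG. DG lay above both other regions in FF HCl sections and above CA3 in FF TE sections, and overlapped CA1 there through CA1 replicate 4. The log2 difference of CA1 from DG was -0.73 (SE 0.17, adjusted p = 0.00217) in FF HCl and -0.52 (SE 0.16, adjusted p = 0.024) in FF TE sections. For CA3 it was -0.47 (SE 0.14, adjusted p = 0.0323) and -0.63 (SE 0.16, adjusted p = 0.013). The FF HCl call of CA1 held without any 1 replicate and was lost after thinning (-0.74, adjusted p = 0.0763). In FF TE sections DG replicate 4 was far above the other 3, and without it CA1 differed by -0.32, adjusted p = 0.198 and CA3 by -0.43, adjusted p = 0.108. Its 962 Slc1a3 UMIs, of a total of 294445, were fewer than the 1046 to 1219 of the others. Replicate 4, the shallowest, had the highest Slc1a3 CPM in each fresh-frozen library. The part of depth in this was not tested. Over all replicates left out in turn, the CA1 call was lost without CA1 replicate 1, 2 or 3 or DG replicate 4 (-0.49 to -0.32, adjusted p = 0.0664 to 0.198), and the CA3 call without CA3 replicate 2 or DG replicate 4 (-0.58 to -0.43, adjusted p = 0.0531 to 0.108). In FF HCl sections the CA3 call was lost without CA3 replicate 1, 2 or 3 or DG replicate 3 or 4 (-0.47 to -0.33, adjusted p = 0.0674 to 0.151) and with the correction for UMI collisions (-0.42, adjusted p = 0.0685).

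DG had the highest mean of Slc1a3 in fixed sections too. PFA frozen replicates had 319, 337, 358 and 92.2 CPM in CA1, 285, 303, 251 and 133 in CA3 and 358, 511, 429 and 449.5 in DG, where CA3 did not overlap DG and CA1 did by 1 of its replicates. CA3 was lower than DG at a log2 difference of -0.77 (SE 0.21, adjusted p = 0.00416). This call held without any 1 replicate and was lost after thinning (-0.58, adjusted p = 0.46). CA1 had -0.62 (SE 0.21, adjusted p = 0.0358), and it was not called without CA1 replicate 1, 2 or 4 or DG replicate 2, 3 or 4 (-0.69 to -0.39, adjusted p = 0.0661 to 0.316). CA1 replicate 4 held 5 Slc1a3 UMIs. The call was also lost in 6 of 8 alternatives: thinning, DESeq2 (-0.57, adjusted p = 0.143), DESeq2 size factors (-0.56, adjusted p = 0.0692), no filter (-0.60, adjusted p = 0.079), filterByExpr (-0.54, adjusted p = 0.084) and TMM from well-counted genes (-0.53, adjusted p = 0.0956). In paraffin sections the means were 238 ± 85.8 CPM in CA1, 223 ± 64.7 in CA3 and 402 ± 119 in DG (SD, n = 4). The values of CA1 and CA3 against DG, -0.72 (SE 0.28, adjusted p = 0.142) and -0.76 (SE 0.29, adjusted p = 0.136), did not pass. CA1 and CA3 were not called different in Slc1a3 in any condition, with log2 values between -0.29 and 0.18.

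Slc1a2, the other glutamate transporter, was called in none of the 12 region comparisons by edgeR without the block or by DESeq2, and none had an unadjusted p under 0.05. With the replicate number as a block it was called lower in CA1 than in DG of PFA frozen sections (-0.33, SE 0.11, adjusted p = 0.0434), where the correlations of same-numbered replicates were not all above 0.1 (0.0854 to 0.252). Its FF TE replicates had 1859, 2561, 2401 and 2585 CPM in CA1, 1938, 2159, 2389 and 2431 in CA3 and 2175, 2222, 2075 and 2792 in DG. The regions overlapped throughout. The log2 difference of CA1 from DG was 0.05 (SE 0.14, adjusted p = 0.889), and its 95% interval ran from -0.22 to 0.32. For CA3 it was 0.00 (SE 0.14, adjusted p = 0.999) with an interval from -0.28 to 0.28. In FF HCl sections the intervals ran from -0.23 to 0.40 and from -0.03 to 0.45, and over all 12 comparisons from -0.66 to 0.47. A difference of the size of Aqp4 between CA1 and DG in fresh-frozen sections lies outside these intervals.

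Glul, which encodes glutamine synthetase, was called higher in CA1 than in CA3 in FF TE sections. The FF TE replicates of CA1 had 1085, 1003, 1039 and 1236 CPM, CA3 824, 758, 727 and 760.1 and DG 1033, 894, 765 and 1026. All replicates of CA1 lay above those of CA3, and DG overlapped both. CA1 was higher than CA3 by 0.49 (SE 0.14, adjusted p = 0.0379), and the call was lost without CA1 replicate 1, 2 or 4 or CA3 replicate 1, 2, 3 or 4 (0.42 to 0.54, adjusted p = 0.0508 to 0.12) and with no filter (0.48, adjusted p = 0.0518). The same comparison gave 0.38 (SE 0.15, adjusted p = 0.127) in FF HCl, 0.13 (SE 0.20, adjusted p = 0.83) in PFA frozen and 0.56 (SE 0.28, adjusted p = 0.405) in paraffin sections, none of which passed. The value in FF HCl sections passed with the replicate block (adjusted p = 0.0221) and after thinning (0.96, adjusted p = 0.0144). Against DG, Glul did not pass in either region without the replicate block, and with the block it passed in CA1 of FF TE sections (0.26, SE 0.09, adjusted p = 0.0339).

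Gja1, which encodes connexin 43, was called higher in DG than in CA1 in both kinds of fixed sections and than in CA3 in FF TE sections. In paraffin sections CA1 had 85.4, 71.99, 70.6 and 27.8 CPM from 4, 4, 5 and 1 UMIs, CA3 157, 141, 125 and 100.2 CPM, and DG 203, 187, 247 and 280.1 CPM from 30, 21, 55 and 18 UMIs. The 3 regions did not overlap. CA1 was 3.43-fold lower than DG, -1.78 (SE 0.40, adjusted p = 9.24e-04), a call that held without any 1 replicate, whereas CA3 had -0.66 (SE 0.32, adjusted p = 0.333). PFA frozen replicates had 57.9, 71.9, 136 and 55.3 CPM in CA1, 143, 120.0, 70.5 and 18.9 in CA3 and 149, 225, 165 and 110.1 in DG. CA1 and CA3 both overlapped DG there. The difference of CA1 was -1.05 (SE 0.30, adjusted p = 0.0103), and it was not called without CA1 replicate 1 or 2 or DG replicate 2 (-0.92 to -0.81, adjusted p = 0.0514 to 0.149) or with DESeq2 (-0.98, adjusted p = 0.0962). The value for CA3 was -0.81 (SE 0.29, adjusted p = 0.0558). Gja1 had, with FF TE, 147, 102, 161 and 192 CPM in CA1, 137, 137, 163 and 133 in CA3 and 242, 187, 181 and 255 in DG. CA3 lay below DG in every replicate and passed with -0.53 (SE 0.17, adjusted p = 0.043), while CA1 had -0.50 (SE 0.18, adjusted p = 0.0777). The CA3 call was lost without CA3 replicate 1, 2 or 4 or DG replicate 1 or 4 (-0.54 to -0.46, adjusted p = 0.0698 to 0.149) and with no filter (-0.52, adjusted p = 0.0526). In FF HCl sections CA1 had 241, 241, 184 and 141 CPM, CA3 145, 134, 98.8 and 146 and DG 131, 144, 222 and 214. CA1 there was above CA3 by 0.63 (SE 0.18, adjusted p = 0.022), a call lost without CA1 replicate 1 or 2 or CA3 replicate 3 (0.52 to 0.56, adjusted p = 0.0805 to 0.101).

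Apoe, the lipid carrier, was lower in CA1 than in DG and than in CA3 in all 4 conditions, of which 2 differences from DG and 1 from CA3 were called. In PFA frozen sections CA1 had 289.7, 437, 392 and 148 CPM, CA3 326, 551, 282 and 189 and DG 499, 723, 553 and 605. CA1 did not overlap DG, and CA3 did by 1 replicate. The differences from DG were -0.85 (SE 0.19, adjusted p = 4.66e-04) in CA1 and -0.74 (SE 0.19, adjusted p = 0.0022) in CA3, and both held without any 1 replicate. In FF HCl sections the means were 737 ± 125 CPM in CA1, 1005 ± 194 in CA3 and 1073 ± 266 in DG (SD, n = 4). CA1 differed from DG by -0.56 (SE 0.18, adjusted p = 0.0237) and from CA3 by -0.52 (SE 0.16, adjusted p = 0.0363). The first was lost without CA1 replicate 1, 2 or 3 or DG replicate 2 or 3 (-0.58 to -0.40, adjusted p = 0.0573 to 0.154) and with filterByExpr (-0.51, adjusted p = 0.0536) and TMM from well-counted genes (-0.50, adjusted p = 0.0574), and the second without CA1 replicate 1, 2 or 3 or CA3 replicate 2, 3 or 4 (-0.53 to -0.41, adjusted p = 0.0699 to 0.151) and with DESeq2 size factors (-0.49, adjusted p = 0.0537), filterByExpr (-0.44, adjusted p = 0.101) and TMM from well-counted genes (-0.42, adjusted p = 0.122). Aldoc, the brain aldolase, had 409, 451, 413 and 377 CPM in CA1 and 536, 566, 666 and 578 in DG of FF HCl sections, without overlap. CA1 was lower at a log2 difference of -0.50 (SE 0.16, adjusted p = 0.0274), a call lost without CA1 replicate 1 or 3 or DG replicate 3 (-0.49 to -0.45, adjusted p = 0.0664 to 0.0859) and with no filter (-0.49, adjusted p = 0.0576). The corresponding FF TE value for Aldoc was 0.03 (SE 0.14, adjusted p = 0.95), and edgeR without the block called Aldoc in no other comparison of regions. Between CA1 and CA3 of FF HCl sections, where its replicates did not overlap, it had -0.42 (SE 0.14, adjusted p = 0.0608), and it was called with DESeq2 (-0.39, adjusted p = 0.0147) and with the replicate block (-0.41, adjusted p = 0.021).

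Gfap and S100b, the cytoskeletal and calcium-binding markers, had no common order of the regions. Gfap replicates in FF HCl sections had 123, 90.2, 107 and 70.7 CPM in CA1, 152, 117, 139.5 and 212 in CA3 and 159, 127, 124 and 167 in DG, and in FF TE sections 91.9, 55.7, 59.4 and 83.6 in CA1, 81.1, 67.5, 33.2 and 66.4 in CA3 and 114, 95.4, 77.2 and 166 in DG. CA1 was the lowest region by its mean with HCl and CA3 with TE. CA1 was lower than CA3 with HCl, -0.64 (SE 0.20, adjusted p = 0.036), and CA3 lower than DG with TE, -0.79 (SE 0.25, adjusted p = 0.0441). The first was lost without CA1 replicate 2, 3 or 4 or CA3 replicate 1, 3 or 4 (-0.68 to -0.46, adjusted p = 0.0507 to 0.16), and the second without CA3 replicate 2 or 3 or DG replicate 1, 2 or 4 (-0.87 to -0.56, adjusted p = 0.0633 to 0.196). DESeq2 called neither (adjusted p = 0.0748 and 0.0686), and the first was also lost with filterByExpr (adjusted p = 0.0531) and with TMM from well-counted genes (adjusted p = 0.0621). S100b was the member called higher in another region than in DG. In FF HCl sections it had 159, 121, 128 and 101 CPM in CA3, 120.4, 95.1, 124 and 94.3 in CA1 and 79.5, 79.1, 73.6 and 67.0 in DG. DG lay below the replicates of both other regions. CA3 was higher by 0.79 (SE 0.19, adjusted p = 0.00676), which held without any 1 replicate, and CA1 had 0.56 (SE 0.21, adjusted p = 0.0587). The CA1 value passed with filterByExpr (0.59, adjusted p = 0.0281), the correction for UMI collisions (0.58, adjusted p = 0.0489) and TMM from well-counted genes (0.59, adjusted p = 0.0396). Thinned to the depth of the shallowest replicate, the CA3 value turned to -0.13 (adjusted p = 0.963). In FF TE sections the values were 0.08 (SE 0.19, adjusted p = 0.892) and 0.34 (SE 0.19, adjusted p = 0.31). Markers of oligodendrocytes, which also express S100b, were all called higher in CA1 and CA3 than in DG in both fresh-frozen conditions (below), and their part in this result was not tested.

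**Figure D2:**
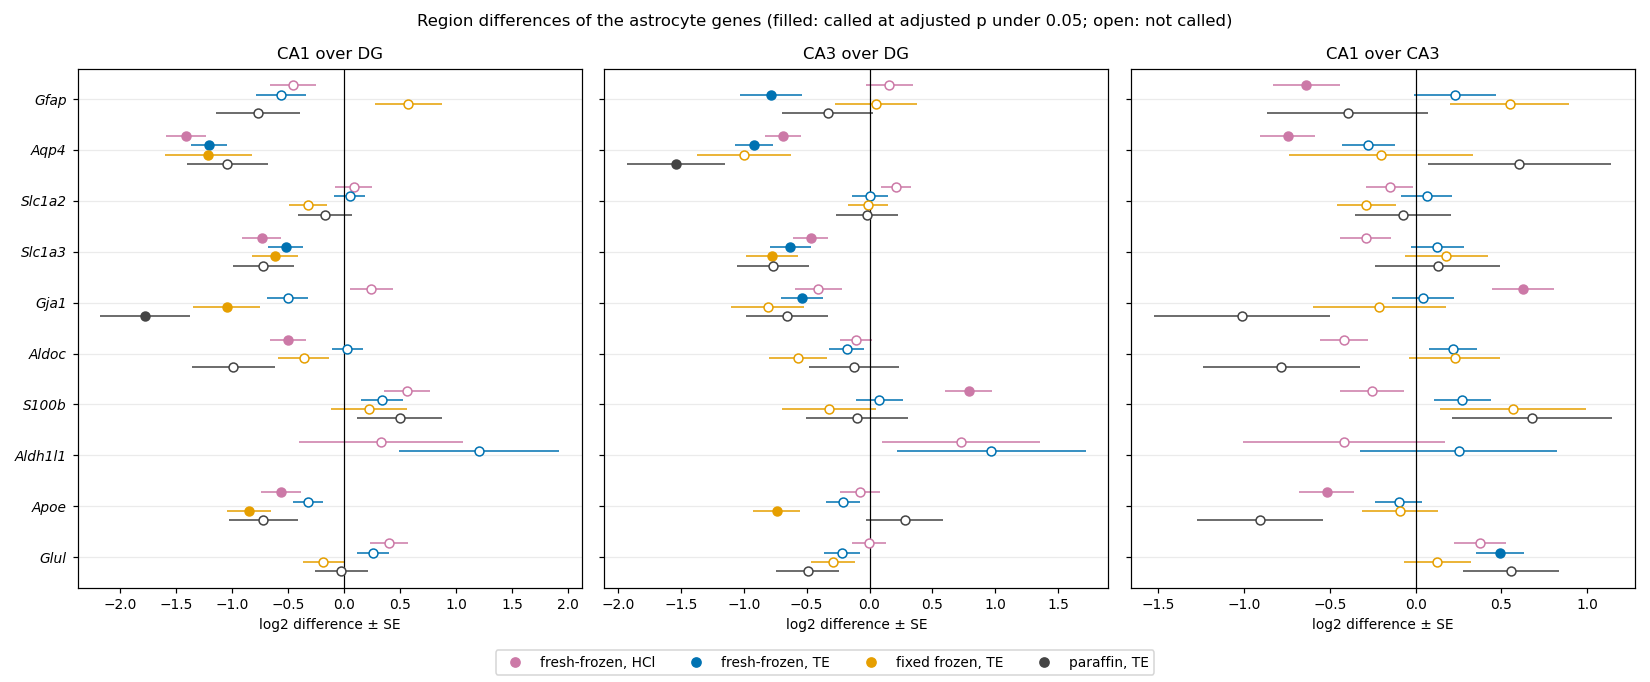
Log2 difference between regions (x axis, ± SE, 4 replicates against 4) of each astrocyte gene in 4 conditions (colours), with filled points for those called at an adjusted p under 0.05. Aqp4 and Slc1a3 lie left of 0, that is higher in DG, in all 8 comparisons with DG, and Slc1a2 lies between -0.33 and 0.21 in them.

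Counted over the 10 genes, 4 were called higher in DG than in CA1 in FF HCl sections, where 8.35% of all genes tested were called in that direction, 2 in FF TE (4.99%), 4 in PFA frozen (4.78%) and 1 in paraffin sections (2.42%). None was called higher in CA1 (background 8.61%, 5.15%, 3.36% and 0.870%). Against CA3, 2, 4, 2 and 1 genes were called higher in DG in the same order of conditions (4.53%, 3.56%, 4.98% and 1.28% of all genes), and S100b was called higher in CA3 in FF HCl sections (4.46%), with no member called higher in CA3 in the other 3 (4.35%, 4.29% and 1.93%). Between CA1 and CA3, 3 genes were called higher in CA3 (5.06%) and 1 in CA1 (4.07%) with FF HCl, and 1 in CA1 (1.99%) and none in CA3 (2.41%) with FF TE. No member was called between CA1 and CA3 by edgeR or DESeq2 in PFA frozen sections (0 members with an unadjusted p under 0.05, 3.34% and 3.86% of all genes called) or in paraffin sections (3 members with an unadjusted p under 0.05, 0.640% and 1.72% called). The median log2 difference of the members from DG was -0.19, -0.15, -0.36 and -0.72 for CA1, beside 0.03, 0.01, -0.11 and -0.18 over all genes, and -0.04, -0.22, -0.57 and -0.33 for CA3, beside 0.02, 0.03, -0.09 and -0.06. The median rests on 10 genes in fresh-frozen and 9 in fixed sections, since Aldh1l1 was too sparse there to be tested. Of the 26 calls, 8 were kept when each replicate was thinned to the depth of the shallowest one. All were comparisons with DG. They were Aqp4 in CA1 of FF HCl and in CA1 and CA3 of FF TE sections, and Slc1a3 in CA3 of both. The others were Apoe in CA1 and CA3 of PFA frozen and Gja1 in CA1 of paraffin sections. Over all genes, thinning also called fewer in each region comparison. In CA1 against DG of FF HCl sections these were 148 higher and 98 lower of 5892 genes, in place of 1282 and 1244 of 14893.

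Replicates with the same number deviated together in the 3 FF TE libraries and between CA3 and DG of FF HCl sections. With the replicate number as a block, the FF TE comparison of CA1 with DG called 6 members in place of 2. Over all 14011 genes tested, the block called 1166 higher in CA1 and 1096 higher in DG, in place of 721 and 699. Gfap (-0.55, SE 0.17, adjusted p = 0.00911), Gja1 (-0.51, SE 0.13, adjusted p = 0.00102) and Apoe (-0.32, SE 0.09, adjusted p = 0.00458) then passed as lower and Glul (0.26, SE 0.09, adjusted p = 0.0339) as higher in CA1. Between CA3 and DG of FF HCl sections, Gja1 was called with the block (-0.42, SE 0.13, adjusted p = 0.0121). There the block called 1353 of 15161 genes higher in CA3 and 1266 higher in DG, in place of 676 and 687.

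Whether a region difference changed with the condition was tested with an interaction term against FF TE sections. Over 3 region differences and 3 conditions, none of the 90 combinations with the 10 members was called by edgeR, 19 had an unadjusted p under 0.05, and DESeq2 called 2. Of all genes, 1.22% (CA1 over DG), 0.0936% (CA3 over DG) and 0.578% (CA1 over CA3) were called for FF HCl sections, 0.265%, 0.290% and 0.340% for PFA frozen sections, and 0.678%, 0.460% and 0.367% for paraffin sections. Both DESeq2 calls were Aldoc, whose value in CA1 was lower relative to DG and to CA3 in FF HCl than in FF TE sections. The edgeR value for CA1 over CA3 was -0.66 (SE 0.19, adjusted p = 0.0892) and for CA1 over DG -0.56 (SE 0.19, adjusted p = 0.158). Gja1 had 0.71 (SE 0.27, adjusted p = 0.213) for CA1 over DG with HCl and -1.43 (SE 0.46, adjusted p = 0.137) in paraffin sections, neither of which passed. With the replicate number as a block the first of these was called (0.74, SE 0.21, adjusted p = 0.0264). The block called 4 of the 90, all between FF HCl and FF TE sections: this one, Aldoc for CA1 over CA3 and over DG, and Gfap for CA3 over DG. Of all 18164 genes, the block called 288 up and 367 down for CA1 over DG there, in place of 132 and 90. For CA3 over DG these were 54 and 18 in place of 13 and 4, and for CA1 over CA3 232 and 263 in place of 73 and 32.

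A list of 40 other genes known from astrocytes gives the wider picture. Between CA1 and DG, 6 were called higher in DG and 7 higher in CA1 of 39 tested in FF HCl sections (8.35% and 8.61% of all genes). These counts were 4 and 1 of 39 in FF TE sections (4.99% and 5.15%). They were 10 and 0 of 37 in PFA frozen (4.78% and 3.36%) and 5 and 1 of 36 in paraffin sections (2.42% and 0.870%). The median log2 differences of the list were -0.15, -0.11, -0.50 and -0.49, beside the all-gene medians above. Against CA3, 4, 4, 6 and 5 were called higher in DG (4.53%, 3.56%, 4.98% and 1.28% of all genes). In CA3, 3, 0, 0 and 1 were called higher (4.46%, 4.35%, 4.29% and 1.93%), of 39, 39, 37 and 38 tested. Slc4a4, the bicarbonate transporter of astrocytes, was called higher in DG than in both other regions in all 4 conditions, with log2 differences of CA1 of -1.63, -1.25, -2.05 and -1.90 and of CA3 of -0.98, -1.20, -1.84 and -2.02. Agt, which encodes angiotensinogen, had the largest mean difference of CA1 from DG among the genes called at least 2 times, -2.13 (SE 0.36, adjusted p = 2.17e-05) with HCl and -2.51 (SE 0.45, adjusted p = 1.13e-04) with TE, and it was also lower in CA1 than in CA3 in both (-1.18 and -1.71). Sparcl1, which encodes the secreted protein hevin, and Atp1b2, a subunit of the sodium pump, were each called lower than DG 3 times in CA1, and 3 and 2 times in CA3. Id4 was called lower in CA1 in the 3 TE conditions, between -1.72 and -0.60. Hepacam, a cell adhesion gene, went the other way and was called higher in CA1 with HCl (1.20, SE 0.25, adjusted p = 4.77e-04) and in paraffin sections (1.36, SE 0.41, adjusted p = 0.031). Cst3 (cystatin C) was called higher in CA3 than in DG with HCl (0.87) and in paraffin sections (1.39), and Mt2 (a metallothionein) lower in CA3 with TE (-0.60) and in paraffin sections (-0.99, adjusted p = 0.0497).

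Markers of other cell types were counted in the same comparisons, and the shares over all genes are those given above. All 10 oligodendrocyte markers were called higher in CA1 than in DG in FF HCl, FF TE and PFA frozen sections and 5 in paraffin sections, with median log2 differences of 1.61, 1.68, 2.32 and 0.76, and in CA3 10, 10, 6 and 1 were. In FF TE sections their summed level was 8936 ± 2194 CPM in CA1, 8132 ± 1260.2 in CA3 and 3387 ± 471 in DG (SD, n = 4), while the 10 astrocyte genes summed to 7361 ± 683, 6754 ± 420.2 and 8712 ± 1229. Of 10 genes of radial glia and neural stem cells, 3 were called higher in DG than in CA1 and 1 higher in CA1 in FF TE sections, 1 and 1 in PFA frozen sections, and in FF HCl sections 2 were called higher in CA1 and 0 in DG. Their sums in FF TE sections were 853 ± 91.8, 871 ± 151 and 955 ± 63.7 CPM. Of 10 microglia genes, 1 was called in the 12 region comparisons, higher in CA1 in FF HCl sections by edgeR and not by DESeq2, and no endothelial gene was called by either (0 to 3 of those tested per comparison had an unadjusted p under 0.05). Genes of ependyma and choroid plexus summed to between 157 and 13267 CPM over the 48 replicates, the highest in 1 DG replicate of paraffin sections, and their calls went both ways. In CA1 against DG, 3 of 5 tested were called higher in DG in FF TE and 2 of 2 in paraffin sections, and 1 was called higher in CA1 in FF HCl and 1 in PFA frozen sections. In CA3 against DG, 1 was called higher in DG in FF TE sections and 2 of 2 higher in CA3 in PFA frozen sections. Excitatory neuron genes summed to 10732 ± 512, 10815 ± 833 and 11247 ± 404 CPM in CA1, CA3 and DG of FF TE sections. The mean sums were 9333, 10688 and 11363 in FF HCl and 8868, 10862 and 8700 in PFA frozen sections. In paraffin sections they were 8126, 13401 and 8928. From FF HCl to paraffin, 0, 1, 1 and 0 were called higher in CA1 than in DG and 2, 0, 3 and 0 lower. In CA3, 0, 0, 3 and 3 were called higher than in DG and 0, 0, 1 and 0 lower. In CA1, 0, 1, 2 and 0 were called higher than in CA3 and 3, 1, 2 and 3 lower. The part of these cell types in the differences of the astrocyte genes was not tested.

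**Figure D3:**
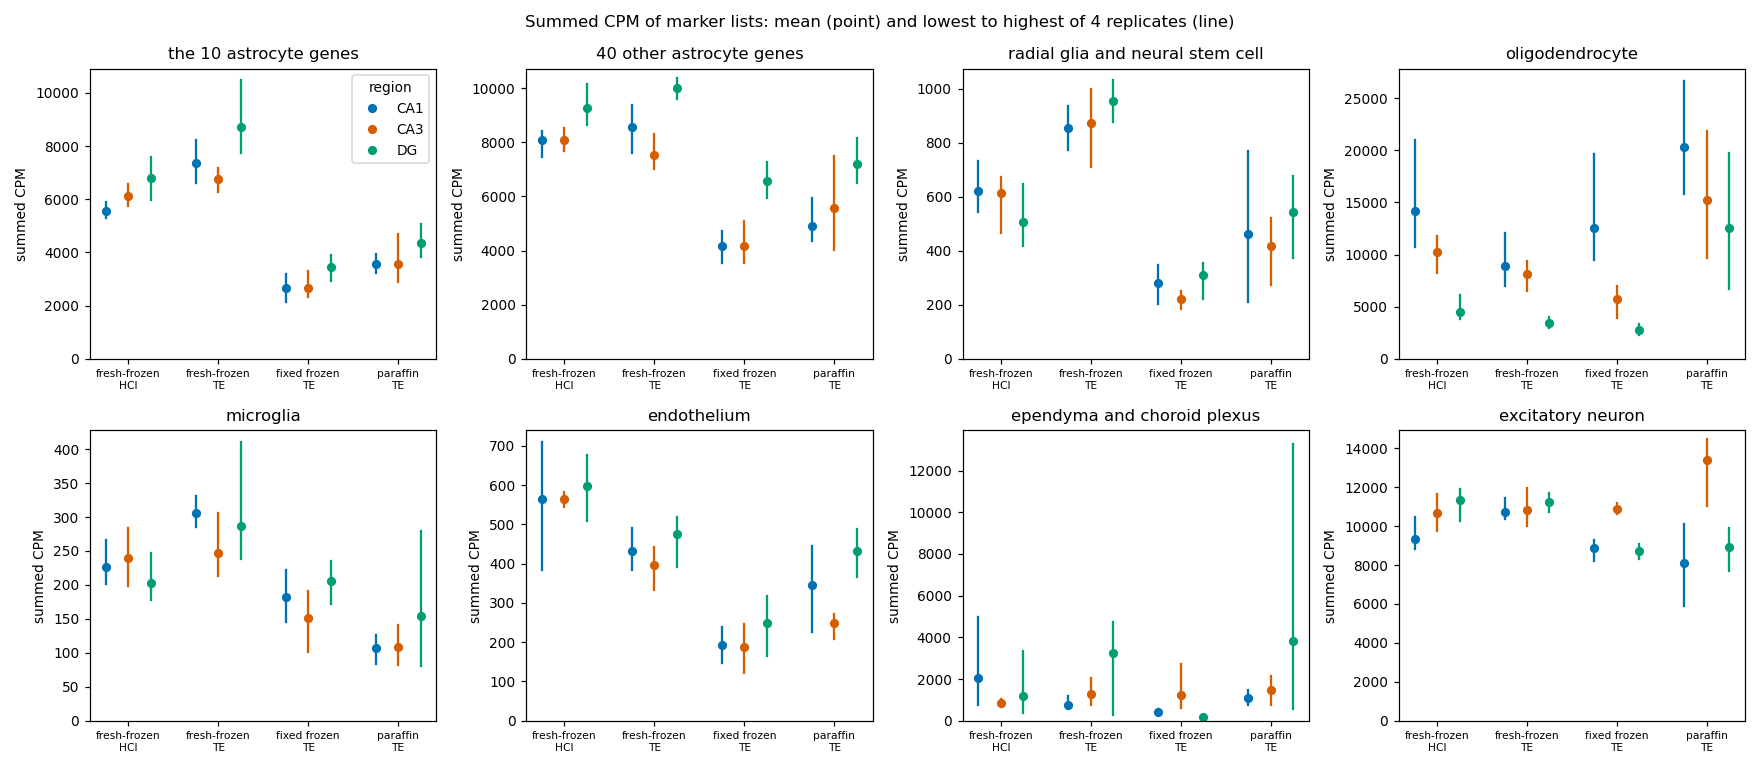
Summed CPM (linear axis from 0) of the 10 astrocyte genes and of 7 other marker lists by condition and region, with the mean as a point and a line from the lowest to the highest of 4 replicates. The astrocyte lists have their highest mean in DG in each condition, and the oligodendrocyte list its lowest.

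The comparison of conditions asks how the preparation of the section changed the astrocyte genes. It used the 12 replicates of each condition with region as a covariate, and a region contributed 1 library per condition, so that condition and library cannot be told apart within a region. Between FF HCl and FF TE sections, 6 members were called lower with HCl and 1 higher, where 14.3% and 16.2% of all genes were called. Aqp4 had 134 to 548 CPM with a median of 282 with HCl and 277 to 933 CPM with a median of 419 with TE, and in each region the replicates with HCl lay below those with TE. The log2 difference was -0.87 (SE 0.10, adjusted p = 7.32e-10). Slc1a2 had 1396 to 1918 CPM with a median of 1604 with HCl and 1859 to 2792 CPM with a median of 2305 with TE. The ranges overlapped only slightly, and Slc1a2 was lower with HCl, -0.63 (SE 0.09, adjusted p = 9.08e-08). Slc1a3 (-0.40), Apoe (-0.41), Aldoc (-0.36) and Glul (-0.28) were lower by less, with adjusted p-values of 0.00184, 7.60e-04, 0.00172 and 0.0161. Gfap was the member that was higher with HCl, 0.62 (SE 0.15, adjusted p = 8.52e-04), with 70.7 to 212 CPM with a median of 126 against 33.2 to 166 CPM with a median of 79.1. Its replicates did not overlap in CA3, where the mean was 155 ± 40.7 CPM with HCl and 62.0 ± 20.3 with TE (SD, n = 4), and overlapped in CA1 and DG. Gja1 (-0.11), S100b (-0.12) and Aldh1l1 (0.10) did not pass. The median over all genes tested was 0.10. These 7 calls held without any 1 of the 24 replicates, and those of Aldoc and Glul were lost when the 4 replicates of a library were summed (-0.40, adjusted p = 0.052, and -0.33, adjusted p = 0.101). Thinned to the depth of the shallowest replicate, the calls of Aqp4 and Slc1a2 were kept, and the other 5 were lost, with values of -0.07 for Slc1a3 (adjusted p = 0.822), -0.08 for Apoe (adjusted p = 0.81), -0.29 for Aldoc (adjusted p = 0.309), 0.69 for Gfap (adjusted p = 0.192) and 0.0025 for Glul (adjusted p = 1.00). Over all genes, thinning called 335 higher and 312 lower with HCl of 9568 tested, in place of 2945 and 2605 of 18164. Glul was also lost with the size factors of DESeq2 (-0.23, adjusted p = 0.055) and with a scaling by well-counted genes alone (-0.19, adjusted p = 0.115).

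Fixation with PFA before freezing went with the largest differences of the members. It came on top of the short post-fixation that the protocol gives to all sections. Between PFA frozen and FF TE sections, 8 members were called lower in the fixed sections and none higher, where 32.9% of all genes were called lower and 15.8% higher, and the median of all genes was -0.39. Aqp4 fell from the FF TE levels above to 14.5 to 119.6 CPM with a median of 53.7, 7.98-fold lower, -3.00 (SE 0.15, adjusted p = 1.18e-31). Slc1a3 fell to 92.2 to 511 CPM with a median of 328, 5.68-fold lower, -2.51 (SE 0.12, adjusted p = 3.18e-33). For both genes no fixed replicate reached the lowest fresh-frozen one. Apoe (-1.45, SE 0.12, adjusted p = 4.19e-19), Aldoc (-1.37, SE 0.13, adjusted p = 8.87e-16) and Slc1a2 (-1.21, SE 0.10, adjusted p = 1.83e-19) also lay below without overlap of the 12 replicates. Glul was lower at a log2 difference of -0.76 (SE 0.11, adjusted p = 2.53e-09). Gja1 (-0.56, SE 0.15, adjusted p = 0.00155) and S100b (-0.49, SE 0.18, adjusted p = 0.0176) were near the median of all genes, -0.17 and -0.10 from it. With a scaling by well-counted genes alone the median of all genes was -0.18, and Gja1 (-0.35, adjusted p = 0.0535) and S100b (-0.26, adjusted p = 0.214) did not pass. Both were also lost with summed libraries (-0.43, adjusted p = 0.052, and -0.37, adjusted p = 0.151), and S100b without PFA frozen CA1 replicate 3 (-0.41, adjusted p = 0.0508). Thinning to one depth lost both as well, with -0.66 (adjusted p = 0.0584) for Gja1 and -0.62 (adjusted p = 0.239) for S100b. Gfap was not called. It had 52.2 to 184 CPM with a median of 119 in PFA frozen sections and a value of 0.36 (SE 0.18, adjusted p = 0.084), which passed in 4 of 9 alternatives: the scaling by well-counted genes (0.59, adjusted p = 0.00607), filterByExpr (0.46, adjusted p = 0.0329), the replicate block (0.40, adjusted p = 0.0304) and summed libraries (0.51, adjusted p = 0.03). In CA1 and CA3 its PFA frozen replicates lay above those of FF TE sections without overlap, with means of 149.6 ± 29.0 against 72.7 ± 17.8 and 101 ± 22.2 against 62.0 ± 20.3 CPM, and in DG they were 96.5 ± 42.7 against 113 ± 38.5 (SD, n = 4). Markers of other cell types were lower here too: 7 of 10 tested genes of endothelium (median -1.61), 5 of 9 tested genes of radial glia and neural stem cells (median -1.63), 6 of 10 tested genes of oligodendrocytes (median -0.48), 6 of 10 tested genes of excitatory neurons (median -0.40), 3 of 10 tested genes of microglia (median -0.25) and 2 of 5 of ependyma and choroid plexus (median -1.09) were called lower, and 1, 2 and 1 genes of oligodendrocytes, excitatory neurons and microglia higher. The median of the tested members was -1.16. The part of these cell types was not tested. The 5 genes called without overlap kept their calls in every alternative.

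Paraffin sections differed from PFA frozen sections in both directions. Aqp4 had 10.1 to 240.1 CPM with a median of 118, above the PFA frozen level by 0.89 (SE 0.23, adjusted p = 0.00138), and Glul had 586 to 1503 CPM with a median of 1188, above by 0.86 (SE 0.14, adjusted p = 4.93e-08). Apoe, with 83.5 to 523 CPM with a median of 186, was lower at a log2 difference of -0.91 (SE 0.17, adjusted p = 1.96e-06), and Aldoc, with 17.998 to 356 CPM with a median of 159, lower at -0.71 (SE 0.19, adjusted p = 0.0015). All 4 overlapped between the conditions over the 12 replicates, and these calls held without any 1 of the 24 replicates. The call of Aldoc was lost with 4 of the 9 alternatives, and those of Aqp4, Glul and Apoe with none. The share of all genes called was 13.7% higher and 14.4% lower in paraffin sections. The other tested members had 0.30 (Gfap), 0.31 (Slc1a2), -0.31 (Slc1a3), 0.20 (Gja1) and 0.44 (S100b) beside a median of 0.05 over all genes. The scaling by well-counted genes moved that median to 0.34 and the value of Slc1a3 to 0.00, and it called Slc1a2 (0.65), S100b (0.76), Gfap (0.62) and Gja1 (0.50) higher in paraffin sections as well. Slc1a2 was also called with DESeq2 (0.52, adjusted p = 7.04e-05), its size factors, filterByExpr and thinning, and S100b with DESeq2 (0.64, adjusted p = 0.0251), its size factors and filterByExpr.

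**Figure D4:**
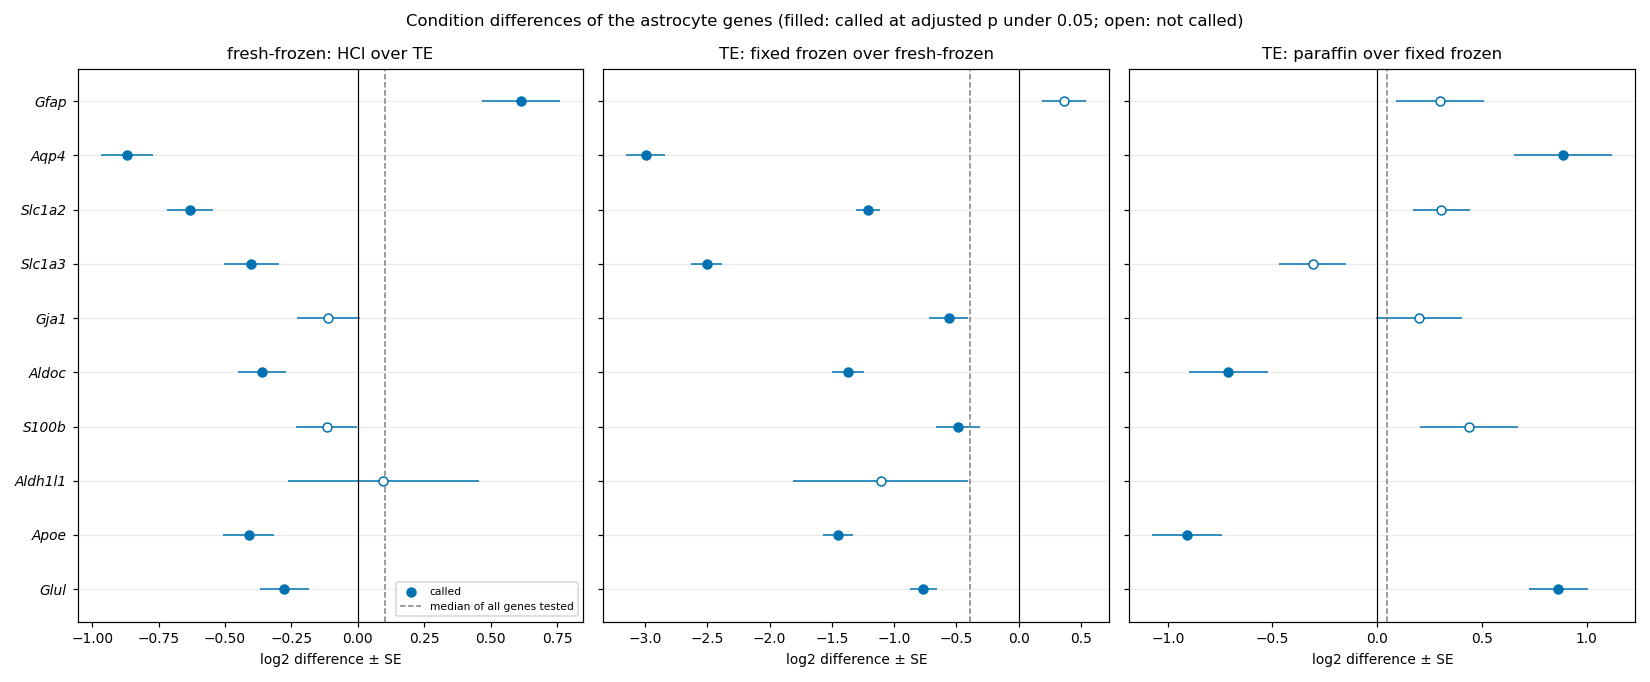
Log2 difference between conditions (x axis, ± SE, 12 replicates against 12) of each astrocyte gene, with filled points for those called at an adjusted p under 0.05 and a dashed line at the median of all genes tested. Aqp4 and Slc1a3 lie farthest to the left in the middle panel, at -3.00 and -2.51, and Gfap to the right of 0 in all 3.

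Among the 40 other astrocyte genes, 8 were called higher and 10 lower with HCl than with TE, beside 16.2% and 14.3% of all genes. The largest differences were Slc4a4 (-1.0), Cbs (0.93), Phkg1 (0.87), Prdx6 (-0.66), Agt (0.65) and Fgfr3 (0.64). In PFA frozen sections 24 of 39 were called lower than in FF TE sections and none higher, beside 32.9% and 15.8% of all genes. The median was -0.68, and the largest differences were Tril (-2.29), Slc4a4 (-2.14), Gstm1 (-1.54), Phkg1 (-1.51), Ntsr2 (-1.47) and Plpp3 (-1.40). Slc4a4 was thus called higher in DG and lower in PFA frozen than in FF TE sections, as Aqp4 was. In paraffin sections 8 of 39 were called higher than in PFA frozen sections and 3 lower, beside 13.7% and 14.4% of all genes. Pla2g7 (1.79), Phkg1 (1.72), Mt2 (1.10), Hepacam (1.08) and Mt1 (0.91) were higher and Cst3 (-1.16) lower. The oligodendrocyte markers moved here too, with all 10 called higher in paraffin than in PFA frozen sections (median 1.69).

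To describe which members followed each other, log2(CPM + 10) was centred on the mean of each condition, and Pearson's r was taken over the 48 replicates, which share 12 libraries and differ in depth. Of the 45 pairs, Slc1a3 and Gja1 had the highest r, 0.629 (Spearman's rho 0.561), followed by Aqp4 and Slc1a3 (0.599, rho 0.693), Aldoc and Apoe (0.565, rho 0.583) and Slc1a3 and Apoe (0.538, rho 0.547). By rho, Aqp4 and Slc1a3 were the closest of these 4 pairs. Apoe and Glul had the lowest r, -0.357. The glutamate transporters had an r of only 0.138 with each other. Against the mean of the other members, Slc1a3 had 0.75, Gja1 0.588 and Aldoc 0.488, whereas S100b had 0.09, Glul 0.148 and Slc1a2 0.202. Of 7423 genes with a mean of at least 20 CPM, the 6 outside the members with the highest r with the mean of the 10 members were AI504432 (0.744), Mt2 (0.736), Serpine2 (0.727), Limch1 (0.72), F730043M19Rik (0.716) and Rasa1 (0.712).

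**Figure D5:**
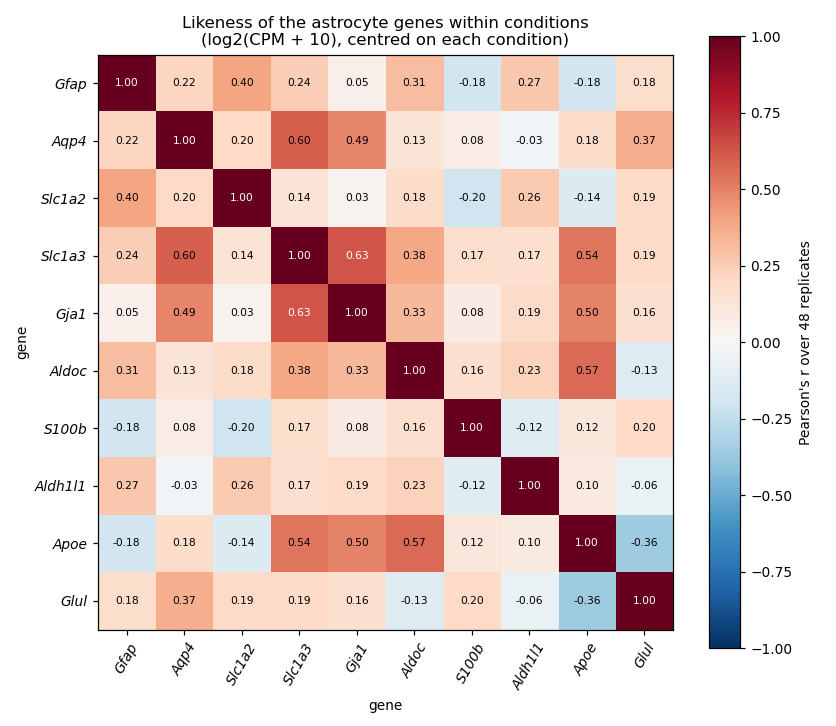
Pearson's r between the astrocyte genes over 48 replicates of log2(CPM + 10) centred on each condition, with red for positive and blue for negative values. Slc1a3, Gja1, Aqp4 and Apoe share most of the higher values, and Apoe with Glul has the lowest, -0.357.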

How the data were processed

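Hippocampal regions were profiled by PIC and CEL-seq2 in 12 libraries of 4 barcoded replicates. According to the paper and the submitters' notes, reads were handled with UMI-tools 1.0.0 and Trim Galore!, aligned to GRCm38 with HISAT2 2.1.0 and assigned with featureCounts 1.6.4, and the authors deposited UMI counts per gene and replicate, without normalization, from UMIs of 6 bases. All 48 columns were used. The authors' own test was DESeq2 1.20.0, which was an alternative here.

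The 10 genes and all marker lists were chosen with earlier results of these data known. Regions were compared within a condition (8 replicates), conditions with region as a covariate (24 replicates), and region differences between conditions by interaction, with edgeR 4.0.16 in R 4.3.3 (glmQLFTest, TMM, a gene total of 10 UMIs or more in the fit, Benjamini-Hochberg over all genes tested, called at an adjusted p under 0.05). Differences are log2, first group over second. CPM used the replicate's total. Genes named from the wider list are up to 6 per region pair with the largest mean difference among those called in the same direction in at least 2 conditions, and up to 6 per pair of conditions with the largest difference among those called, and the 6 most like the members' mean. Likeness is Pearson's r of log2(CPM + 10) among genes with a mean of at least 20 CPM. Positions are from GENCODE M21 and promoters from RefSeq.

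The fits were tested on simulated data. There, TMM over all genes shifted the comparison of PFA frozen with FF TE sections, so a TMM restricted to genes averaging 10 UMIs or more was added as an alternative after that test. The other alternatives were DESeq2 1.42.0, its size factors, no filter on low counts, filterByExpr, the replicate number as a block, thinning to 35932 UMIs, a correction for UMI collisions among 4096 UMIs, summed libraries for conditions, and each replicate left out. Pairing by replicate number was checked by the correlation over genes of same-numbered deviations from the library mean. All 4 were above 0.1 between CA3 and DG of FF HCl sections (0.228 to 0.433) and in the 3 pairs of FF TE libraries (0.180 to 0.338), and not in the other region pairs. They were also above 0.1 between FF HCl and FF TE sections in CA3 (0.259 to 0.369) and in DG (0.171 to 0.337), and not in CA1 or between the other conditions. The labels and the paper do not tie the numbers to mice. Depth and counts of 0 are given with the results, and intervals cover counting error or the replicate spread only.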

Additional observations from a re-analysis of the deposited data

Results flagged for a closer look

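Among 120 combinations of gene, region and condition, 9 held a replicate farther from the other 3 than Dixon's limit for 4 values allows, and chance alone gives about 1 in 20. Slc1a3 had 3267 CPM in replicate 4 of DG in FF TE sections, above the other 3, and 92.2 CPM (5 UMIs) in replicate 4 of CA1 in PFA frozen sections, below them. Both bear on the Slc1a3 comparisons with DG, which are given with and without them in the report. Gfap had 326 CPM (13 UMIs) in replicate 4 of CA3 in paraffin sections. In replicate 3 of CA3 in FF TE sections Gja1 had 163 and Apoe 1202 CPM. For Aldh1l1 the 4 values rest on 1 or 2 UMIs each: 6.79 CPM in DG of FF TE, 4.12 in DG of PFA frozen, and 20.9 in CA3 and 31.1 in DG of paraffin sections. No test of these replicates beyond the distance was made.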

How the results depend on the processing

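Of the 45 calls of members, 39 were kept with DESeq2, 42 with its size factors, 40 with no filter on low counts, 39 of 44 with filterByExpr, 45 with the replicate block, 44 after the correction for UMI collisions, 37 with TMM from well-counted genes, 15 of 19 with summed libraries and 19 after thinning to one depth. Thinning, which leaves each replicate the UMIs of the shallowest one, gave 1 member called in CA1 against DG in FF HCl, FF TE and PFA frozen sections, 1 in CA3 against DG in FF HCl and PFA frozen sections, 2 in CA3 against DG in FF TE sections, 0 in CA1 against CA3 in FF TE sections, 0 in CA3 against DG in paraffin sections and 2 between FF HCl and FF TE sections. It gave 6 between PFA frozen and FF TE sections. Over all genes, thinning also called fewer in each region comparison. In CA1 against DG it called 148 higher and 98 lower of 5892 in FF HCl sections, in place of 1282 and 1244 of 14893. The counts were 69 and 74 of 5412 in FF TE and 100 and 118 of 5152 in PFA frozen sections. Between FF HCl and FF TE sections it called 335 and 312 of 9568, and between PFA frozen and FF TE sections 1207 and 1361 of 8876. In CA1 against CA3 of FF HCl sections it gave 1, Glul (0.96, adjusted p = 0.0144), which had not been called, and the 4 earlier calls were lost. It reversed S100b between CA3 and DG in FF HCl sections (-0.13, adjusted p = 0.963) and Glul between FF HCl and FF TE sections (0.0025, adjusted p = 1.00). Between CA1 and CA3 of FF HCl sections 2 members were called with filterByExpr and with TMM from well-counted genes, and in FF TE sections 0 with no filter. Of all genes, these settings called 673 higher and 645 lower of 9352, 799 and 640 of 15637, and 313 and 400 of 24135. Between CA1 and DG of PFA frozen sections 1 was called with DESeq2 and 2 with no filter or filterByExpr, and between paraffin and PFA frozen sections 7 with TMM from well-counted genes. Of all genes, DESeq2 called 246 higher and 231 lower of 8491 there, no filter 270 and 332 of 16478, and filterByExpr 261 and 240 of 2774. Between paraffin and PFA frozen sections the well-counted TMM called 2823 and 943 of 12189. With the replicate number as a block, 6 members were called in CA1 against DG in FF TE sections, and region differences changed between FF HCl and FF TE sections for 2 members (CA1 over DG), 1 (CA3 over DG) and 1 (CA1 over CA3), where DESeq2 gave 1, 0 and 1. The block also called more of all genes in each of these, with the counts given above. In the comparisons where the 4 same-number correlations were not all above 0.1, the block moved counts of members by no more than 1.5 times, the lowest of the 4 was 0.0010 to 0.0854, and all 4 numbers correlated best with their own in 1 of these 8 region comparisons (CA1 against DG in paraffin sections). With 1 replicate left out, the members called in CA1 against DG numbered 2 to 5 in FF HCl, 1 to 3 in FF TE, 1 to 4 in PFA frozen and 1 to 3 in paraffin sections. In CA3 against DG they numbered 2 to 3, 1 to 4, 2 to 5 and 0 to 1, and in CA1 against CA3 1 to 3, 0 to 1, 0 and 0 to 1. The cause of these changes was not tested. Depth limits the fixed sections, where Gfap, Aqp4 and S100b had at most 43 UMIs in a replicate.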
